A study of Homo sapiens with 18 samples.

Results

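The connexin and pannexin genes examined here were GJA1, GJB1, GJB2, GJC1, GJA3, GJB6, PANX1 and PANX2, 8 of the 58870 genes in the count table. They were found by gene name and had been chosen on their levels and responses in these same libraries, so their values over the 6 conditions are described and not tested. RNA-seq was performed on 3 human melanoma cell lines, WM164, SKMEL28 and A375, each made to overexpress either GFP, the control, or the transcription factor MAFG, with 3 libraries per condition and 18 in all. Both genes were delivered by lentivirus with blasticidin selection and were driven by an EF1α promoter, the MAFG being Myc-DDK-tagged, and all cells were grown in RPMI with 5% FBS. The 6 conditions are named WM164 GFP, WM164 MAFG, SKMEL28 GFP, SKMEL28 MAFG, A375 GFP and A375 MAFG. MAFG is a small MAF protein that binds DNA as a dimer and lacks an activation domain of its own. The labels do not say whether the 3 libraries of a condition came from separate cultures, so spreads and p-values may measure technical variation.

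Connexins are membrane proteins that assemble into hemichannels, and hemichannels of neighboring cells dock to form gap junctions, through which ions and small metabolites pass. Pannexins resemble connexins in topology but work mainly as channels between the cytosol and the outside, and PANX1 is known for releasing ATP. In skin, melanocytes and keratinocytes are coupled by gap junctions, and GJA1, the most widely expressed connexin, is the main connexin of many of these contacts. GJB2 and GJB6 are connexins of keratinocytes and of the inner ear, GJA3 is a lens connexin, GJB1 is known from liver and from myelinating Schwann cells, and GJC1 from the heart and vascular smooth muscle.

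Library totals ranged from 20122172 to 39025042 counts, with a median of 31061375. MAFG itself rose from a mean of 25.8 to 53.1 CPM (counts scaled to a common library size) in WM164 (adjusted p = 6.37e-08, edgeR) and from 24.1 to 37.3 CPM in SKMEL28 (adjusted p = 1.28e-04, edgeR). In A375 it stood at 27.0 ± 4.98 CPM with GFP and 47.3 ± 9.24 CPM with MAFG (SD, n = 3), with no overlap of libraries and an edgeR adjusted p = 0.0655, so the library labels were matched by the targeted gene in direction in all 3 lines. Melanocytic markers summed to 4695 to 5029 CPM in WM164 GFP and 2638 to 2767 CPM in WM164 MAFG, with none of the 8 at 0, and to 4842 to 5105 and 4233 to 4462 CPM in SKMEL28. A375 had sums of 36.1 to 42.2 CPM with GFP and 120 to 173 CPM with MAFG. Most of that difference was SOX10, at 8.85 and 114 CPM, while MITF was at 28.6 and 27.4 CPM. The defining pigment cell markers MLANA and TYR had no count in any A375 library. Of the immune markers, CD3E had no count in any library, while the summed list, mostly CD68, went from 124 to 139 CPM in WM164 GFP to 53.2 to 59.5 CPM in WM164 MAFG. Keratinocyte markers summed to at most 14.7 CPM in WM164, 33.6 CPM in SKMEL28 and 81.6 CPM in A375. The 8 fibroblast markers summed to 23.9 to 24.3 CPM in WM164 GFP and 25.7 to 27.8 CPM in WM164 MAFG, 3 of 8 reaching 1 CPM in each, and to 11.4 to 13.1 and 18.3 to 21.4 CPM in SKMEL28, where 1 of 8 did. Within that list PDGFRA rose in WM164 from 3.80 to 14.9 CPM (adjusted p = 1.53e-09, edgeR) and COL1A2 from 0.116 to 0.507 CPM (adjusted p = 0.0268, edgeR), COL3A1 was at 0 and 0.452 CPM, LUM fell from 17.9 to 8.96 CPM (adjusted p = 3.42e-07, edgeR), and THY1 had no count. The part of these shifts in the results that follow was not tested, and in these bulk libraries a change in the share of cells expressing a gene and a change in RNA per cell cannot be told apart.

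Which connexins and pannexins were expressed differed by line. Counting the 8 genes and 16 further family members, 24 genes in all (21 connexins and 3 pannexins), 9 had no count in any of the 18 libraries, among them GJB2 and GJB6. At least 10 counts in every library of a condition were reached by 7 family genes in WM164 GFP and 7 in WM164 MAFG, by 5 and 6 in SKMEL28, and by 8 and 5 in A375. GJC1, GJA3 and PANX1 were the 3 that had at least 10 counts in all 18 libraries.

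**Figure D1:**
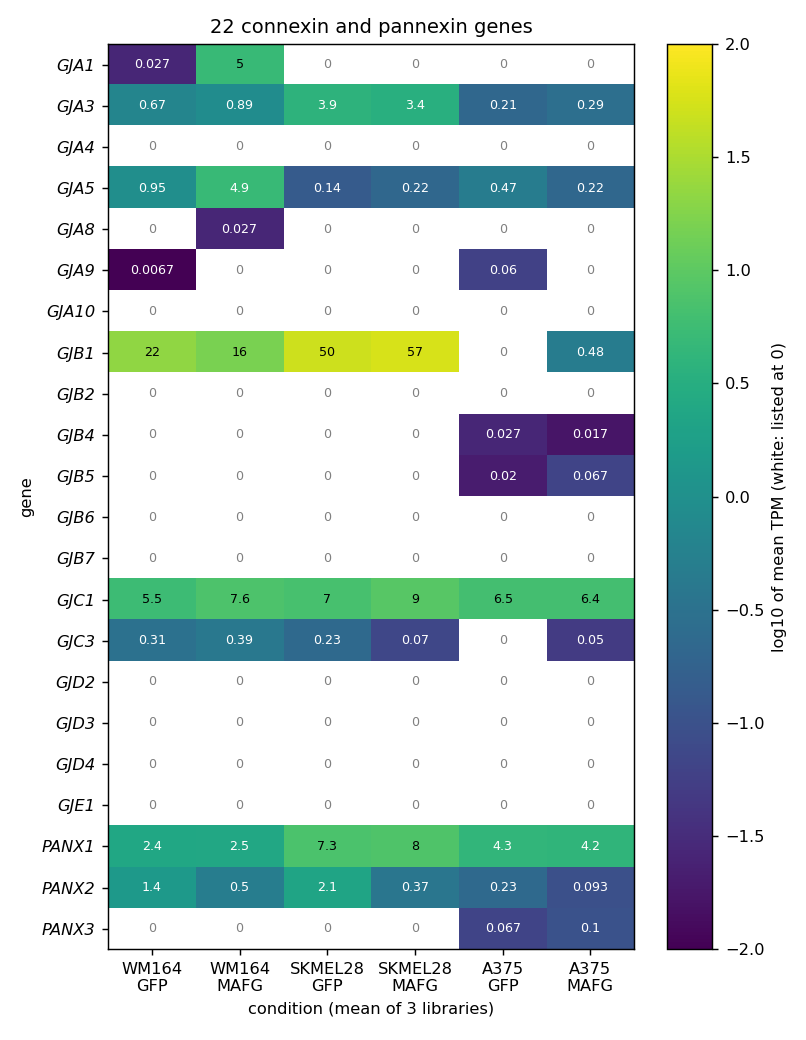
Mean TPM (a per-length scale) of 22 connexin and pannexin genes (rows) in the 6 conditions (columns, mean of 3 libraries each), colored on a log10 scale and printed in each cell, with white for genes listed at 0. GJB1 was the highest connexin in both SKMEL28 conditions and both WM164 conditions, GJC1 was the highest in A375, and 9 rows were at 0 throughout.

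On the deposited TPM scale, which divides by transcript length and so allows levels of different genes to be set side by side, GJB1 had the highest level of the connexins in SKMEL28 and WM164, and GJC1 in A375. Summed over connexins, the level was 60.9 ± 1.07 TPM in SKMEL28 GFP, 29.1 ± 4.62 TPM in WM164 GFP and 10.1 ± 1.96 TPM in A375 GFP (SD, n = 3). GJB1 made up 81.4 ± 1.31% of that sum in SKMEL28 GFP and 74.6 ± 4.31% in WM164 GFP, whereas GJC1 made up 64.3 ± 2.21% in A375 GFP. With MAFG, the make-up in SKMEL28 was little different, GJB1 holding 81.7 ± 2.59%. In WM164 MAFG the GJB1 share was 45.2 ± 1.62%, and GJA1 at 14.5 ± 0.871% and GJA5 at 14.3 ± 1.43% took shares that had been 0.0866 ± 0.0891% and 3.21 ± 0.510% with GFP. The WM164 sum was 34.5 ± 2.69 TPM with MAFG, and its libraries, from 31.5 to 36.7 TPM, overlapped those of WM164 GFP, from 24.5 to 33.7 TPM. The composition thus differed more than the total in WM164. Among the pannexins, PANX1 held 62.9 ± 5.93% of the TPM in WM164 GFP and 83.6 ± 1.93% in WM164 MAFG, and 77.4 ± 1.56% and 95.6 ± 0.454% in SKMEL28.

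**Figure D2:**
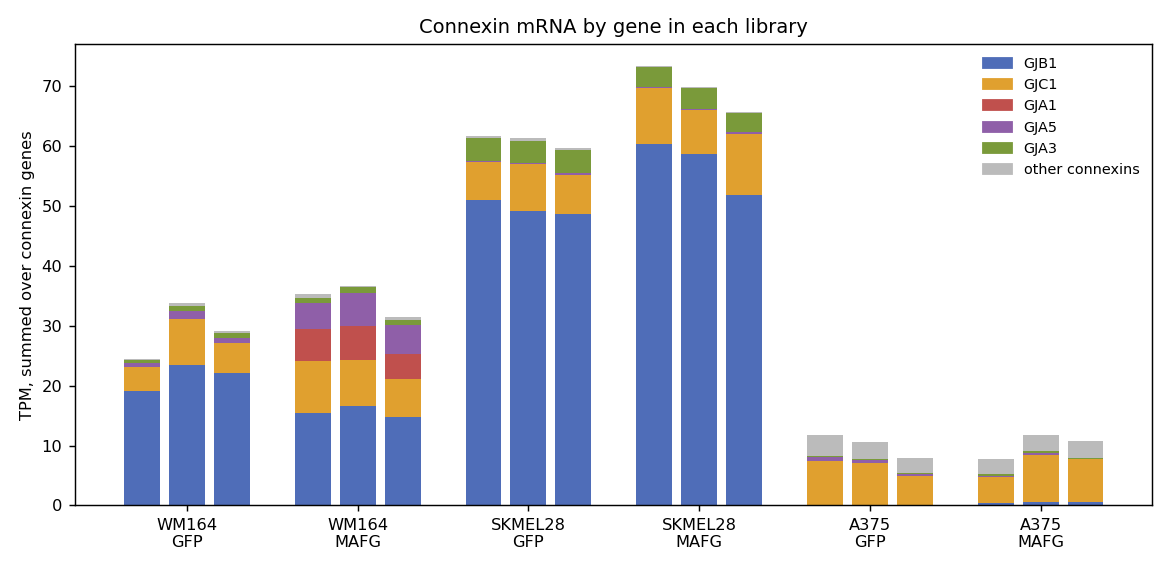
TPM summed over the 21 connexin genes (y axis) in each of the 18 libraries (bars, 3 per condition), divided by gene. The WM164 MAFG bars hold GJA1 and GJA5 segments, at means of 5.02 and 4.93 TPM, against 0.0267 and 0.947 TPM in WM164 GFP, and the A375 bars are the lowest, at a mean of 10.1 TPM with GFP and with MAFG.

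GJA1 was close to absent in WM164 GFP and appeared in every WM164 MAFG library. It had 2, 6 and 0 counts in the 3 WM164 GFP libraries and 689, 662 and 667 counts in the 3 WM164 MAFG libraries. In CPM the values were 0.0714, 0.199 and 0 with GFP and 24.1, 24.5 and 20.6 with MAFG, a mean of 0.0901 ± 0.101 against 23.1 ± 2.13 (SD, n = 3). The libraries of the 2 conditions did not come near each other. Pooled, 8 counts stood against 2018, a depth-scaled ratio of 239 with an exact 95% interval of 121 to 555 that covers counting error only. The fitted log2 fold change was 7.85 (SE 0.27), a size that depends on how the near-zero GFP counts are handled. SKMEL28 and A375 had no GJA1 count in any of their 12 libraries, whichever gene they overexpressed. A count of 0 allows at most 3 counts, which is 0.0698 to 0.148 CPM depending on the library. The processed pseudogene GJA1P1, whose sequence is close to that of GJA1, had no count in any library.

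GJA1 lies on chromosome 6 at chr6:121435595-121449727 on the forward strand (GRCh38, GENCODE 44) and overlaps no other annotated gene. The 250 bases before the RefSeq start (GRCh38.p14) of 6 of the 8 genes, all but GJC1 and PANX2, and of 2 GJA5 starts were searched on both strands for the MAF recognition core TGCTGA, found in 14.0% of 35116 promoters, the AP-1 site TGANTCA, found in 6.57%, the ARE core TGACNNNGC, found in 10.9%, and the E-box CACGTG and M-box TCATGTG, found in 6.34% and 2.52%. Matches to AP-1 and to the MAF core may share letters where they lie together. In GJA1 there was 1 match to AP-1, 48 to 42 bases before the RefSeq start, and 1 to the MAF core, as TCAGCA on the other strand, 197 to 192 bases before it. The GENCODE start lies 51 bases before the RefSeq start, so that the AP-1 match begins 3 bases after it, within the GENCODE gene. The windows of GJB1, GJA3, GJB2, GJB6, PANX1 and GJA5 held none of these letters. The 2 stretches below belong to the connexins that were higher with MAFG in WM164 and show these matches in capitals, GJA1 from chr6:121435396-121435624 on the forward strand, 229 bases, and GJA5 from chr1:147773352-147773601 on the reverse strand, 250 bases without a match.
GJA1: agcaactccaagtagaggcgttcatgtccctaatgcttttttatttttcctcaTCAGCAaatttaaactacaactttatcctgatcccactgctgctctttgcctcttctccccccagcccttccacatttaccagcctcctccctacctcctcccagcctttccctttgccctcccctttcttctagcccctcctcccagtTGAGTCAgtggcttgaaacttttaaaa
GJA5: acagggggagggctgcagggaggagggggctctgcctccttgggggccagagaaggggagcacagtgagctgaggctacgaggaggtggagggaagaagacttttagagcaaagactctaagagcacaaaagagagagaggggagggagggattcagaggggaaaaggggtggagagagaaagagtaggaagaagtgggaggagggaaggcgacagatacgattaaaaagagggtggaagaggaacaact
The matches are letters only, since no binding was measured in these libraries.

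GJA5, a connexin of the atrial conduction system and of arterial endothelium that was not among the chosen 8, was the other connexin that rose in WM164. Its counts were 126, 194 and 113 with GFP and 628, 695 and 785 with MAFG, or 5.13 ± 1.13 and 24.0 ± 1.87 CPM (SD, n = 3). The log2 fold change was 2.21 (SE 0.13, adjusted p = 3.98e-10 over 15919 genes, edgeR quasi-likelihood test with Benjamini-Hochberg adjustment). The WM164 libraries of the 2 conditions lay far apart. Those of SKMEL28 and A375 were low throughout and also did not overlap, MAFG being higher in SKMEL28 and lower in A375. In SKMEL28 the level was 0.406 ± 0.120 CPM with GFP and 0.944 ± 0.232 CPM with MAFG (log2 fold change 1.23, SE 0.50, edgeR adjusted p = 0.0731). In A375 it was 1.81 ± 0.167 CPM with GFP and 0.820 ± 0.551 CPM with MAFG (log2 fold change -1.16, edgeR adjusted p = 0.873), where 1 MAFG library had 8 counts and the other two 47 and 41. In a model of all 18 libraries the GJA5 response differed between WM164 and A375 by 3.38 on the log2 scale (edgeR adjusted p = 4.49e-05) and between SKMEL28 and A375 by 2.40 (edgeR adjusted p = 0.0125). The difference between WM164 and SKMEL28, 0.98, had an edgeR adjusted p = 0.323. Over 18767 genes, 4.39% were called different in the first of these comparisons, 4.20% in the second and 5.10% in the third. The antisense transcript that overlaps GJA5 on the other strand had no count in any library. Of 6 endothelial markers 1 reached 1 CPM in each WM164 condition, CDH5 and CLDN5 had no count, and the list summed to 8.37 to 12.2 CPM with GFP and 9.02 to 10.8 CPM with MAFG.

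GJB1, the most abundant connexin in SKMEL28 and WM164, differed with MAFG in opposite directions in these 2 lines. In WM164 the 3 GFP libraries had 61.8, 60.8 and 59.9 CPM and the 3 MAFG libraries 38.4, 39.6 and 38.2 CPM, or 60.8 ± 0.954 against 38.7 ± 0.735 (SD, n = 3), a log2 fold change of -0.65 (SE 0.06). In SKMEL28 the GFP libraries had 96.6, 89.6 and 95.3 CPM and the MAFG libraries 125, 123 and 115 CPM, or 93.9 ± 3.74 against 121 ± 5.24, a log2 fold change of 0.37 (SE 0.06). In both lines every MAFG library lay outside the range of the GFP libraries, below it in WM164 and above it in SKMEL28, and both fold changes were smaller than 2.0. In A375 no GJB1 read was counted in the 3 GFP libraries, and 34, 41 and 8 counts in the 3 MAFG libraries. The mean there was 0.711 ± 0.468 CPM, at least 8.76-fold higher than the 0.0811 CPM that 3 counts in each GFP library would give. A375 MAFG replicate 3 was the lowest in counts, but by deposited TPM the 3 libraries had 0.36, 0.59 and 0.50. These counts were too few for GJB1 to pass the filter on low counts in A375. The A375 libraries listed 203 to 541 protein-coding genes with 1 to 3 counts, against 713 to 1076 in the libraries of the other lines, and the part of this in the 0 counts of GJB1 was not tested.

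The melanocytic marker SOX10, a transcription factor of melanocytes and Schwann cells, was higher with MAFG in A375, as GJB1 was. It rose there from 8.85 ± 2.35 to 114 ± 24.5 CPM (log2 fold change 3.68, SE 0.21, adjusted p = 2.12e-05, edgeR). S100B, another marker of both cell types, had 5, 2 and 1 counts in A375 GFP and 19, 36 and 48 in A375 MAFG (edgeR adjusted p = 0.0998). Other melanocytic markers did not follow in A375. MITF was at 28.6 ± 1.35 and 27.4 ± 6.17 CPM, PMEL at 0.146 and 0.273 CPM and TYRP1 at 0.631 and 0.503 CPM, with overlapping libraries. In WM164 SOX10 was at 1369 and 1328 CPM and in SKMEL28 at 892 and 910 CPM, with overlapping libraries in each. S100B was at 212 ± 8.51 and 215 ± 7.28 CPM in WM164, and rose in SKMEL28 from 271 ± 21.4 to 405 ± 9.59 CPM (log2 fold change 0.58, adjusted p = 5.16e-06, edgeR), where GJB1 was also higher. The part of SOX10 and S100B in the GJB1 values was not tested.

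**Figure D3:**
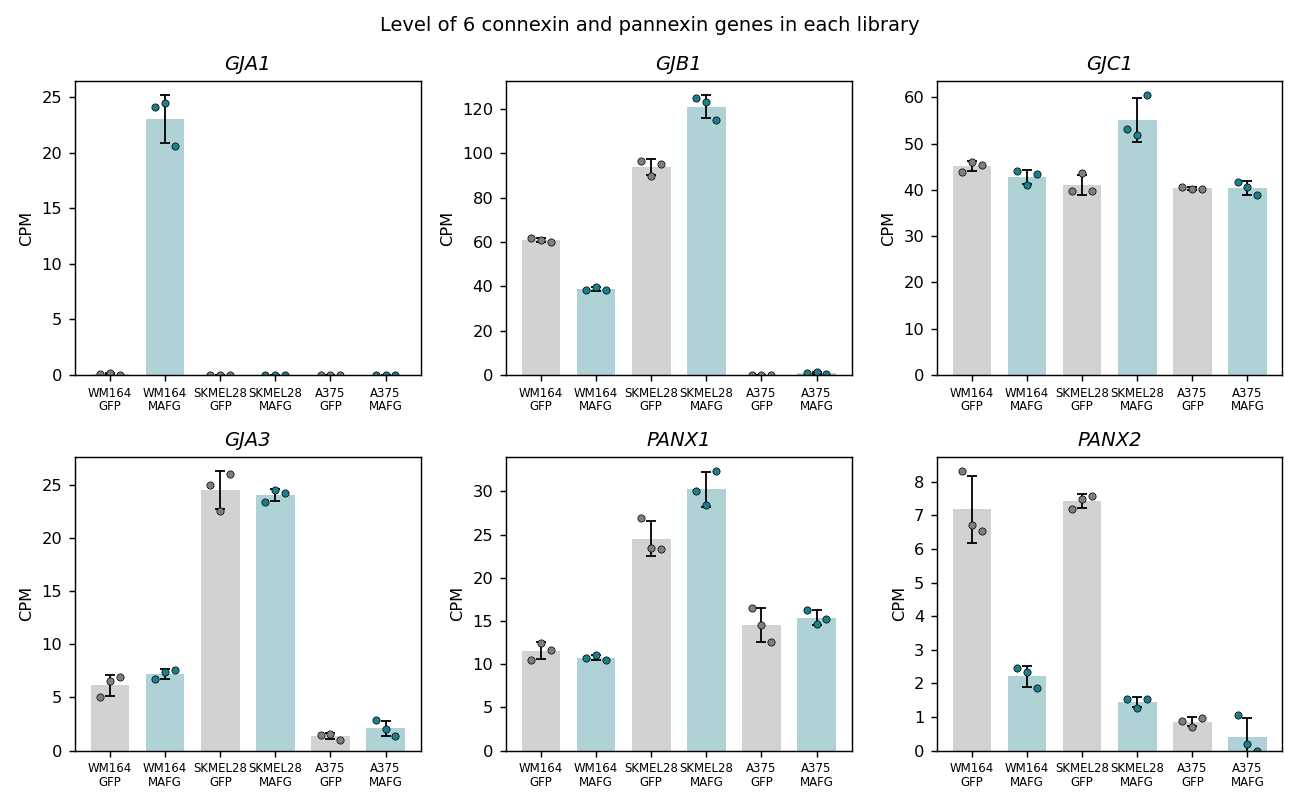
CPM (y axis, linear from 0, a separate scale in each panel) of the 6 detected genes in the 6 conditions (x axis), with 1 point per library, bars for the mean and error bars for the SD of 3 libraries. GJA1 stands out in WM164 MAFG alone at 23.1 CPM, GJB1 is lower with MAFG in WM164 and higher in SKMEL28, and PANX2 is lower with MAFG in both.

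GJC1 was the most even of the 6 detected genes, with condition means from 40.3 to 55.1 CPM. In WM164 it had 43.9, 46.1 and 45.4 CPM with GFP and 44.0, 41.1 and 43.4 CPM with MAFG, a log2 fold change of -0.08 (SE 0.07). In SKMEL28 it had 39.8, 43.6 and 39.7 CPM with GFP and 53.1, 51.8 and 60.5 CPM with MAFG, a log2 fold change of 0.43 (SE 0.08). In A375 the means were 40.3 ± 0.247 and 40.4 ± 1.46 CPM (SD, n = 3). By CPM only the SKMEL28 libraries separated by condition, with MAFG higher. In deposited TPM these overlapped, at 6.46, 7.83 and 6.63 with GFP and 9.42, 7.37 and 10.34 with MAFG. By the deposited TPM the order of the conditions was another, WM164 GFP being lowest at 5.53 ± 1.88 TPM and WM164 MAFG second at 7.63 ± 1.25 TPM, and the WM164 fold change had the opposite sign. GJC1 lies at chr17:44798448-44830816 on the reverse strand. Its tested neighbor ADAM11, at 16602 bases, fell in SKMEL28, where GJC1 was higher, from 2.78 ± 0.0709 to 1.14 ± 0.277 CPM (log2 fold change -1.28, adjusted p = 0.00351, edgeR).

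By CPM, GJA3 followed the cell line and not the overexpressed gene. It stood at 25.0, 22.5 and 26.0 CPM in SKMEL28 GFP and 23.4, 24.5 and 24.2 CPM in SKMEL28 MAFG. WM164 had 6.14 ± 1.0 CPM with GFP and 7.23 ± 0.456 CPM with MAFG, and A375 1.37 ± 0.323 and 2.09 ± 0.733 CPM (SD, n = 3). In CPM the libraries of the 2 conditions overlapped in each line, while the 3 lines did not overlap. The log2 fold changes were -0.03 (SE 0.09) in SKMEL28, 0.24 (SE 0.15) in WM164 and 0.59 (SE 0.37) in A375. By deposited TPM the conditions separated in SKMEL28, at 3.90, 3.71 and 3.95 with GFP and 3.36, 3.48 and 3.21 with MAFG. They also separated in WM164, with MAFG higher, at 0.47, 0.77 and 0.77 against 0.82, 0.95 and 0.89 TPM. In A375 they overlapped on that scale too. By length, GJA3 in SKMEL28 GFP was at 3.85 ± 0.127 TPM, below GJB1 at 49.6 ± 1.23 TPM and GJC1 at 6.97 ± 0.747 TPM.

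GJB2 and GJB6 lie beside GJA3 on chromosome 13, all 3 on the reverse strand within 94111 bases (chr13:20138255-20232365). Neither had a count in any of the 18 libraries, which allows at most 0.0698 to 0.148 CPM per library. GJA3 was thus expressed next to 2 undetected connexins. Of the 8 tested protein-coding genes within 500000 bases of this cluster, 0 were called in each of the 3 lines (edgeR), and also by DESeq2. Over all tested genes 6.94%, 4.74% and 0.665% were called in WM164, SKMEL28 and A375, so nothing is read from these counts. An unadjusted p under 0.05 was seen for 3, 3 and 0 of the 8 (edgeR). An adjusted p of at most 0.05 was seen for 2, 1 and 0, against 31.8%, 29.9% and 0.843% of all tested genes. In WM164 CRYL1, a sugar dehydrogenase gene, fell from 19.2 to 13.5 CPM (log2 fold change -0.51, adjusted p = 6.35e-04, edgeR). ZMYM5 rose there (log2 fold change 0.35, adjusted p = 0.0224, edgeR). In SKMEL28 MPHOSPH8 rose from 46.8 to 61.2 CPM (log2 fold change 0.38, adjusted p = 0.00160, edgeR).

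PANX2, a pannexin known from neurons, was lower with MAFG in WM164 and in SKMEL28. WM164 GFP libraries had 8.32, 6.70 and 6.52 CPM and WM164 MAFG libraries 2.45, 2.33 and 1.85 CPM, or 7.18 ± 0.990 against 2.21 ± 0.315 (SD, n = 3), a log2 fold change of -1.70 (SE 0.19). SKMEL28 GFP libraries had 7.20, 7.48 and 7.59 CPM and SKMEL28 MAFG libraries 1.53, 1.26 and 1.54 CPM, or 7.42 ± 0.205 against 1.44 ± 0.163, a log2 fold change of -2.36 (SE 0.19). The 2 lines had similar GFP levels, and in neither did the conditions overlap. In A375 the counts were 34, 26 and 35 with GFP and 42, 7 and 0 with MAFG, so that the MAFG libraries spread from above the GFP range to 0 (log2 fold change -1.08, SE 1.02). Without A375 MAFG replicate 1, the high library, the log2 fold change was -3.19. PANX2 lies at chr22:50170731-50180295 on the forward strand. Its nearest tested neighbors at 5618 and 85305 bases, TRABD and MLC1, fell in SKMEL28, TRABD from 36.6 ± 3.76 to 21.9 ± 2.35 CPM (log2 fold change -0.73, adjusted p = 3.30e-05, edgeR) and MLC1, a gene of astrocyte junctions, from 1.45 ± 0.214 to 0.252 ± 0.190 CPM (log2 fold change -2.52, adjusted p = 0.00228, edgeR). In WM164, where PANX2 was also lower, TRABD was at 30.9 ± 4.32 and 29.2 ± 0.765 CPM (edgeR adjusted p = 0.546).

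PANX1 did not share the pattern of PANX2. In SKMEL28 it had 26.9, 23.4 and 23.3 CPM with GFP and 30.0, 28.4 and 32.4 CPM with MAFG, a log2 fold change of 0.30 (SE 0.09). In CPM the conditions did not overlap in SKMEL28, and MAFG was higher. By deposited TPM they overlapped, at 7.98, 7.28 and 6.69 with GFP and 8.12, 7.64 and 8.12 with MAFG. In WM164 the means were 11.6 ± 1.03 and 10.8 ± 0.320 CPM and in A375 14.6 ± 1.96 and 15.4 ± 0.828 CPM (SD, n = 3), with overlapping libraries and log2 fold changes of -0.11 (SE 0.11) and 0.07 (SE 0.14), which both change sign on the TPM scale.

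**Figure D4:**
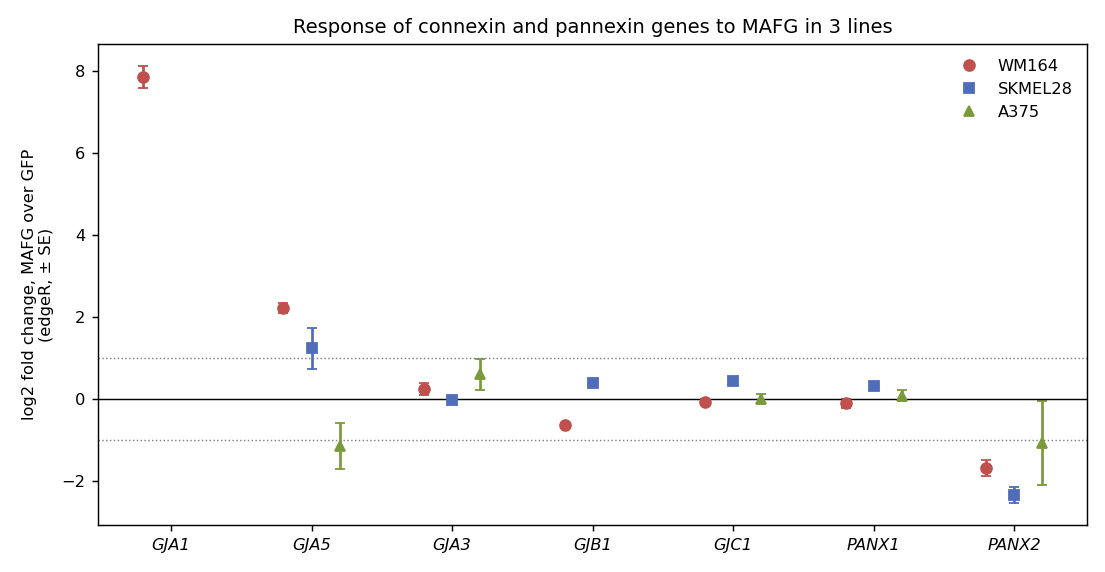
Log2 fold change of MAFG over GFP (y axis) with its standard error from edgeR for 6 of the 8 chosen genes and GJA5 (x axis) in WM164 (circles), SKMEL28 (squares) and A375 (triangles), for genes that passed the filter on low counts. Dotted lines mark a log2 fold change of 1.0 in either direction. GJA1 in WM164 is at 7.85, GJB1 lies on opposite sides of 0 in WM164 and SKMEL28, and PANX2 is below -1 in all 3 lines with a long error bar in A375.

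Of the 8 genes, 6 passed the filter on low counts in WM164, 5 in SKMEL28 and 4 in A375, GJB1 being left out in A375. At an adjusted p of at most 0.05 and a fold change above 2.0, 2 of the 6 would be called in WM164, GJA1 higher and PANX2 lower, where 6.94% of 15919 genes were called. In SKMEL28 1 of the 5 was called, PANX2 lower, where 4.74% of 15523 genes were called. In A375 0 of the 4 were called and 0 had an unadjusted p under 0.05 (edgeR), where 0.665% of 15779 genes were called. DESeq2 called 1 in A375, GJB1, as did edgeR without the filter on low counts and with all 18 libraries in 1 model. By CPM, libraries did not overlap for 3 of 6 genes in WM164, 4 of 5 in SKMEL28 and 0 of 4 in A375. Of all tested genes this held for 43.4%, 43.0% and 12.3%. Since the genes were chosen with these contrasts known, nothing is read from these counts.

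Ordered by mean CPM over the 6 conditions, GJB1 was the only gene of the 6 detected in which every neighboring pair of conditions was separated. Its order was SKMEL28 MAFG, SKMEL28 GFP, WM164 GFP, WM164 MAFG, A375 MAFG and A375 GFP. For GJA3 the separated steps were the 2 between lines. For PANX1 both SKMEL28 conditions led, each separated from the next, then A375 and then WM164, whose conditions overlapped within each line. For PANX2 the GFP conditions of SKMEL28 and WM164 overlapped at the top, followed by WM164 MAFG and SKMEL28 MAFG, each separated from the next, and by A375. For GJC1 only the top condition, SKMEL28 MAFG, was separated from the next, and for GJA1 only WM164 MAFG.

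The genes whose log2 CPM was most like that of each gene over the 18 libraries were taken from 18767 genes as a description, since the libraries of a condition share a cell line and treatment. For GJA1 they were KCNT1, a potassium channel gene, DAB1, an adaptor of reelin signaling, and EDN3, a ligand of melanocyte development, with Pearson r of 0.993, 0.988 and 0.988. All 3 had no count in SKMEL28 and A375, and KCNT1 was at 0.0221 CPM in WM164 GFP and 2.02 CPM in WM164 MAFG. For GJB1 they were CTSV, AL035541.1 and NF2 (r of 0.994, 0.994 and 0.991), and for GJA3 NRROS, ZDHHC13 and FAM86DP (0.991, 0.988 and 0.987). For PANX1 they were SNX30, ANKLE2 and NGRN (0.987, 0.977 and 0.976), for PANX2 ATP6V0A1, PIK3C2B and FAM189A2 (0.957, 0.955 and 0.939), and for GJC1 RAVER2, TMTC4 and CYB5R2 (0.832, 0.828 and 0.817). Between the chosen genes the highest r was 0.90, for GJA3 and GJB1, both high in SKMEL28, and GJA1 and GJA5 had an r of 0.85.

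Of the 16 further family genes, 2 were tested in WM164, 1 in SKMEL28 and 4 in A375, and GJA5 in WM164 was the only call. Over all tested genes 6.94%, 4.74% and 0.665% were called in these lines, and nothing is read from the count. The 2 in WM164 were GJA5, with a log2 fold change of 2.21, and GJC3, at 0.25. The 1 in SKMEL28 was GJA5, at 1.23. In A375 the median of the 4 was -0.43, beside -0.00 over all genes tested.

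Connexin channels are held in place, moved and modified by scaffold, cadherin, cytoskeletal and kinase proteins. Of 21 such genes 19 were tested in WM164, where 8 rose and 5 fell, and 20 in SKMEL28, where 7 rose and 6 fell (adjusted p at most 0.05, edgeR), or 13 of each, with median log2 fold changes of 0.06 and 0.07. Over all tested genes the same threshold was passed by 31.8% in WM164, 29.9% in SKMEL28 and 0.843% in A375, and nothing particular to this list or the next ones is read from their counts. In A375 0 of 19 passed the test by edgeR and 0 by DESeq2, with a median of 0.04, and 2 had an unadjusted p under 0.05. CCN3, a secreted matricellular protein that binds GJA1, rose in WM164 from 5.48 ± 0.896 to 11.9 ± 0.735 CPM (log2 fold change 1.12, adjusted p = 4.46e-06, edgeR) and in SKMEL28 from 33.5 ± 2.91 to 73.9 ± 3.11 CPM (log2 fold change 1.14, adjusted p = 1.81e-08, edgeR). It was called under 13 of 15 alternatives in WM164 and 12 of 15 in SKMEL28, with log2 fold changes down to 0.83 and 0.87 on the TPM scale. SRC, a kinase that phosphorylates GJA1, had 5, 5 and 8 counts in WM164 GFP and 37, 26 and 48 in WM164 MAFG (log2 fold change 2.50, adjusted p = 7.27e-04, edgeR), and fell in SKMEL28 from 36.2 ± 2.18 to 18.7 ± 1.15 CPM (log2 fold change -0.95, adjusted p = 6.80e-07, edgeR). The SRC response differed between WM164 and SKMEL28 by 3.47 on the log2 scale (adjusted p = 1.09e-07, edgeR). SRC in WM164 was called under 11 of 12 alternatives. CDH1, the epithelial cadherin, had 33, 18 and 32 counts in SKMEL28 GFP and 2, 6 and 0 in SKMEL28 MAFG (adjusted p = 0.00205, edgeR), and was called under 11 of 12 alternatives. CDH2, the neural cadherin, rose in WM164 from 136 ± 8.70 to 207 ± 12.7 CPM and in SKMEL28 from 31.3 ± 1.25 to 46.6 ± 3.07 CPM (adjusted p of 4.15e-07 and 2.59e-05, edgeR), below a fold change of 2.0.

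ATP released by pannexins acts on purinergic receptors. Of 17 genes of this pathway 10 were tested in WM164, where 2 rose and 2 fell, and 9 in SKMEL28, where 1 rose and 2 fell (adjusted p at most 0.05, edgeR, against 31.8% and 29.9% of all tested genes), with median log2 fold changes of 0.11 and -0.01. In A375 0 of 10 passed the test by edgeR and 0 by DESeq2, 0 had an unadjusted p under 0.05, and the median was 0.12. P2RX4, an ATP-gated cation channel, fell in both lines in which PANX2 was lower, from 12.6 ± 0.891 to 8.90 ± 0.848 CPM in WM164 (log2 fold change -0.50, adjusted p = 0.00298, edgeR) and from 16.0 ± 1.60 to 8.51 ± 0.494 CPM in SKMEL28 (log2 fold change -0.91, adjusted p = 3.34e-05, edgeR). P2RX7, a related channel, fell in WM164 from 217 ± 15.6 to 149 ± 7.82 CPM (log2 fold change -0.54, adjusted p = 2.13e-06, edgeR) and was at 51.0 ± 1.95 and 49.7 ± 3.93 CPM in SKMEL28. The adenosine receptor gene ADORA2B rose in WM164 from 2.05 ± 0.355 to 4.34 ± 0.312 CPM (log2 fold change 1.08, adjusted p = 9.12e-04, edgeR), but by 0.95 on the log2 scale, below a fold change of 2.0, without WM164 GFP replicate 3, and it was called under 12 of 15 alternatives. The nucleotide receptor gene P2RY1 had 13, 5 and 4 counts in SKMEL28 GFP and 32, 14 and 31 in SKMEL28 MAFG (adjusted p = 0.0358, edgeR), a call that was lost under 6 of 12 alternatives, among them leaving out SKMEL28 GFP replicate 2 or 3 or SKMEL28 MAFG replicate 1 or 3, with log2 fold changes of 1.38 to 1.65.

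Of 11 genes of other large-pore channels, 6 were tested in WM164, where 0 rose and 2 fell, and 6 in SKMEL28, where 1 rose and 3 fell (adjusted p at most 0.05, edgeR, against 31.8% and 29.9% of all tested genes), with median log2 fold changes of 0.01 and 0.00. In A375 0 of 8 passed the test by edgeR and 0 by DESeq2, 1 had an unadjusted p under 0.05, and the median was -0.13. LRRC8B, a subunit of the volume-regulated anion channel, fell in SKMEL28 from 11.5 ± 0.999 to 4.48 ± 0.879 CPM (log2 fold change -1.36, adjusted p = 1.27e-05, edgeR, called under 13 of 15 alternatives) and in WM164 from 19.3 ± 1.78 to 15.0 ± 1.37 CPM (log2 fold change -0.36, adjusted p = 0.0115, edgeR). LRRC8A, the obligatory subunit of that channel, rose in SKMEL28 from 28.5 ± 0.116 to 39.4 ± 0.602 CPM (log2 fold change 0.47, adjusted p = 1.24e-04, edgeR).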

How the data were processed

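RNA-seq of 18 libraries from 3 melanoma lines was analysed. Per the labels, the authors trimmed reads with cutadapt 1.8.1, aligned them with STAR 2.7.7a and used RSEM 1.3.0 and DESeq2, and the methods name featureCounts, with GRCh38 as the genome build. The labels name a non-stranded library kit and the methods a strand-specific kit, so the use of strand is unclear. The deposited counts are raw whole reads per gene, and the TPM values deposited by the authors are scaled per length and to the same sum in each library. CPM levels, counts scaled by library size, were computed from the counts with TMM factors over 18 libraries, and SD is over 3 libraries.

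Each line was tested with the edgeR 4.0.16 quasi-likelihood test in R 4.3.3 (TMM, filterByExpr, Benjamini-Hochberg over all tested genes), a gene being called at an adjusted p of at most 0.05 and a log2 fold change beyond 1.0 in either direction. Differences between lines were contrasts in a model of 18 libraries. Alternatives used DESeq2 1.42.0, other filters, a replicate block, limma 3.58.1 on log2(TPM + 1) or log2(TPM + 0.1), and leaving out each library. An exact permutation test of 3 against 3 libraries cannot go below p = 0.1 and was not used. The scripts were tested on simulated data. Limits for 0 counts used 3 counts, and intervals cover counting error only.

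The 8 genes and all gene lists were chosen with earlier results of these data known. Of each list, at most 4 called genes were to be named, by smallest adjusted p, with the nearest tested neighbors and the 3 genes most alike in pattern. CDH2, DBN1, PRKCA, P2RX4, P2RX7 and LRRC8A, which were not called in any line, were added after their values were seen. Some genes are not reported here. Figures were drawn with matplotlib 3.10.9.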

Additional observations from a re-analysis of the deposited data

Results flagged for a closer look

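The responses to MAFG differed between lines, past the thresholds of the model of 18 libraries, for 6 genes of the lists. Over all 18767 genes, 5.10% were called different for WM164 minus SKMEL28, 4.39% for WM164 minus A375 and 4.20% for SKMEL28 minus A375. Nothing is read from the number of list genes. GJB1, lower with MAFG in WM164 and higher in SKMEL28, had a response difference (WM164 minus SKMEL28) of -1.02 on the log2 scale, which is a description, since GJB1 was chosen with its response known. GJA5 differed by 3.38 between WM164 and A375 and by 2.40 between SKMEL28 and A375 (edgeR adjusted p of 4.49e-05 and 0.0125). SRC differed by 3.47 between WM164 and SKMEL28, by 2.12 between WM164 and A375 and by -1.35 between SKMEL28 and A375 (edgeR adjusted p of 1.09e-07, 1.09e-04 and 2.83e-05), with only 5 to 8 counts per WM164 GFP library. DBN1, an actin-binding partner of GJA1, rose in WM164 and fell in SKMEL28, a difference of 1.08 (edgeR adjusted p = 1.38e-05). LRRC8B fell more in SKMEL28 than in WM164, by 1.01 (edgeR adjusted p = 0.0108). PRKCA, a protein kinase C gene, differed between WM164 and A375 by 1.08 (edgeR adjusted p = 2.43e-05). For 4 more differences, of GJB1, GJC3 and CDH1 against A375, the A375 GFP libraries had no count, and no size is given.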

How the results depend on the processing

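No called value changed direction under any alternative run. For WM164, 1105 genes were called, against 734 when every library had to hold at least 10 counts, and 384, 617 and 356 with limma on log2(TPM + 1), on log2(TPM + 0.1) and on log2(TPM + 1) without a filter. Of the 8 genes, 2 were called in WM164, but 1 with at least 10 counts in every library, where GJA1 was filtered out, and 1 with log2(TPM + 1), with or without a filter, where PANX2 was not called. For SKMEL28, 736 genes were called, against 226, 411 and 206 with the same limma settings, and PANX2 was called in all 15 alternatives. For A375, 105 genes were called, against 173 with DESeq2, 216 without a filter, 64 with at least 10 counts in every library, 311 with all 18 libraries in 1 model and 19, 15 and 5 with the limma settings, and 1 of the 8 genes, GJB1, was called with DESeq2, without a filter and with all 18 libraries in 1 model. With at least 10 counts required in every library, response differences were called for 4.28%, 3.15% and 3.07% of 11922 genes (WM164 minus SKMEL28, WM164 minus A375, SKMEL28 minus A375), against 5.10%, 4.39% and 4.20% of 18767, and the cause was not tested. Leaving out 1 library gave 1051 to 1103 calls in WM164, 678 to 726 in SKMEL28 and 55 to 153 in A375, where omitting MAFG replicate 2 gave the fewest and any of the 3 GFP libraries 63 to 67, and the number called among the 8 genes stayed at 2, 1 and 0. On the TPM scale the median log2 fold change of all genes moved by 0.15 to 0.18 in WM164, -0.15 to -0.17 in SKMEL28 and -0.10 to -0.11 in A375, and higher calls were 81.0% to 82.3% of calls in WM164 against 71.1%, and 19.5% to 21.4% in SKMEL28 against 37.1%. The small log2 fold changes of GJC1 and PANX1 in WM164 and A375 changed sign under 3 to 4 alternatives each and that of GJA3 in SKMEL28 under 1. Same-numbered libraries had correlations of -0.38 to 0.19 in their deviations, and not every library correlated best with its own number. With 3 libraries per condition this cannot tell whether the numbers pair them, and the main test left the numbers out. A replicate block gave 1056, 716 and 64 calls in WM164, SKMEL28 and A375 and changed no call among the 8 genes. Other causes were not tested. Depth limits GJB2, GJB6 and GJA1 outside WM164 to the upper limits given, and counts of at most 42 make the A375 values of GJB1 and PANX2 imprecise.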
